A study of Mus musculus with 10 samples.

Results

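Apoptotic cell clearance receptors and bridges are the proteins with which phagocytes recognise dying cells, and 10 of their genes were followed in the inflamed mouse colon: Mertk, Axl, Tyro3, Gas6, Pros1, Timd4, Stab1, Stab2, Mfge8 and Cd36. They were matched by gene symbol to the array's annotation, each with 1 probe set, out of 19505 genes measured. Total RNA of complete colon tissue from wildtype C57BL/6 mice was measured on 10 gene expression arrays. All mice drank 3% dextran sulfate sodium (DSS), a polysaccharide that injures the colonic epithelium, and received an antibody against the checkpoint receptor PD1 intraperitoneally. The 5 ECP arrays came from mice that were also given donor cells treated by extracorporeal photopheresis (ECP), which exposes leukocytes to a photosensitiser and ultraviolet A light, and the 5 control arrays from mice with DSS and anti-PD1 alone. Age, sex, the number of transferred cells, the donor strain and whether each array is a separate mouse are not stated by the labels, so p-values speak to the spread among these samples and not necessarily among animals. Both groups had colitis, and no untreated colon was analysed here.

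A dying cell exposes phosphatidylserine, a lipid of the inner membrane leaflet, on its surface. Some receptors bind this lipid directly (Timd4, Stab1, Stab2), whereas the receptor tyrosine kinases Tyro3, Axl and Mertk (the TAM family) and the integrins bind it through soluble bridges, Gas6 and Pros1 for TAM receptors and Mfge8 for integrins. Photopheresis drives the treated leukocytes into apoptosis, and their uptake by phagocytes is held to be part of how the treatment dampens immune responses. The comparison of the ECP with the control arrays asks whether the genes of this uptake route differed in the colitic colon after the transfer.

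The values are log2 intensities made by the robust multi-array average (RMA), so a difference of 1 is a doubling. The groups were compared with limma, a linear model with moderated variances, over all 19505 genes, and a gene passed at a Benjamini-Hochberg adjusted p under 0.05. Some arrays stood apart before any comparison was made. Control replicates 1, 4 and 5 had mean levels of 10.7, 12.6 and 6.74 for 8 pancreatic acinar genes, where the other 7 arrays had 5.47 to 5.80, and the B cell marker level was 8.72 in control replicate 4 against 5.74 to 7.0 elsewhere. Control replicate 1 was also lowest of all arrays in macrophage, monocyte, endothelial, lymphatic, fibroblast and smooth muscle marker levels. The colon epithelial marker level, over 10 genes that include Epcam, Cdx2 and Car1, ran from 12.1 to 12.3 in the ECP arrays and from 11.7 to 12.3 in the controls, so the labelled tissue carried its defining markers on every array. Results are therefore also given without control replicates 1 and 4, a choice made with earlier results of these data known.

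No clearance gene passed the threshold, 0 of 10, as was the case for 0% of all genes. Stab1 and Stab2, which code for the scavenger receptors stabilin-1 and stabilin-2, were the members with an unadjusted p under 0.05 (limma), both lower in the ECP arrays, a count of 2 of 10 against 5.08% of all genes in either direction and 2.77% of all genes lower. The count of members higher at that p was 0 of 10, against 2.31% of all genes. Of the 10 genes 5 lay higher and 5 lower in the ECP arrays, with a median difference of -0.013, and over all genes 53.3% lay higher and 46.7% lower and the median was 0.0078. The groups overlapped for all 10 members, whereas they did not overlap for 1.22% of all genes.

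**Figure D1:**
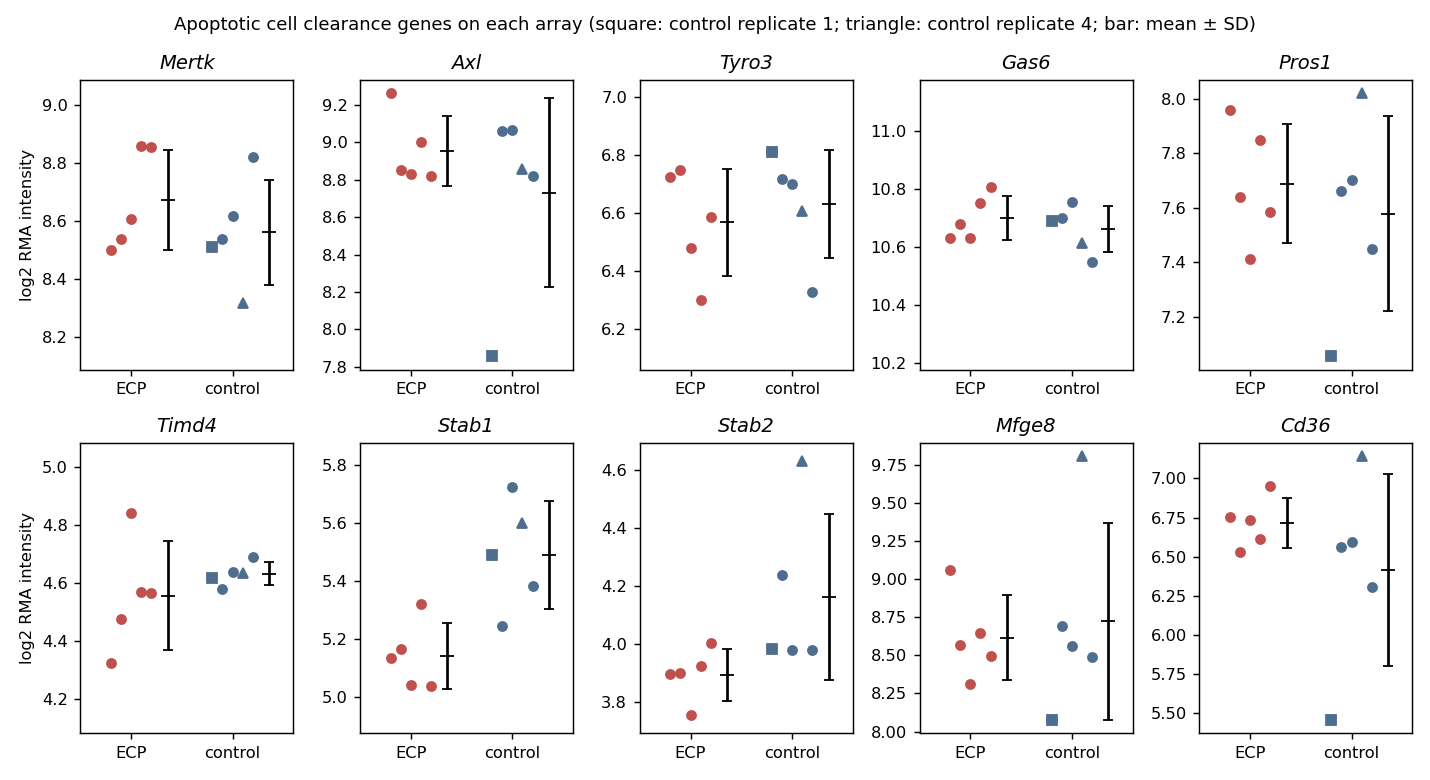
Log2 RMA intensity (y axis) of the 10 clearance genes on the 5 ECP arrays (red) and the 5 control arrays (blue), with the mean ± SD of each group beside the points, and control replicates 1 and 4 drawn as a square and a triangle. For each of Stab1, Stab2 and Timd4, 4 of 5 ECP arrays lie below all controls, while control replicate 1 is the lowest array for Axl, Pros1, Mfge8 and Cd36.

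The upstream sequences of 4 members are shown here as a description. These genes were picked for their results, and no test used the sequences. Stab1 and Stab2 are the pair whose difference between the groups had an unadjusted p under 0.05, though neither passed the adjustment, and Pros1 and Mfge8 the pair that followed each other across arrays. Each line gives the 250 bases before the annotated start, 5′ to 3′, from the RefSeq promoter table on build GRCm38.p6, in which all 10 members had 1 entry. Capitals mark matches to GGGCGG (the GC box bound by Sp1), AGGTCA (the hexamer bound by nuclear receptors), GAGGAAGT (a PU.1 site) or TATAAA (the TATA box), on either strand and with overlapping matches counted separately.
Stab1, chr14:31168642-31168891, minus strand: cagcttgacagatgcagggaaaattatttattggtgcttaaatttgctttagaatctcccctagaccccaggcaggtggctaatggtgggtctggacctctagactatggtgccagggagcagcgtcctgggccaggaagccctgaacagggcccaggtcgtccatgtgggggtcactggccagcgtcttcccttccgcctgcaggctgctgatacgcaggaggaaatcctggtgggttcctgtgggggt
Stab2, chr10:87007943-87008192, minus strand: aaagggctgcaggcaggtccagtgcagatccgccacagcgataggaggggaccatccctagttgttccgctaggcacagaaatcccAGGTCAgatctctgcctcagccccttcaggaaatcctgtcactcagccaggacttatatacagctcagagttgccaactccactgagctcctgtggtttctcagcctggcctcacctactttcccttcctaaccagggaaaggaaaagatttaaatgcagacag
Pros1, chr16:62854057-62854306, plus strand: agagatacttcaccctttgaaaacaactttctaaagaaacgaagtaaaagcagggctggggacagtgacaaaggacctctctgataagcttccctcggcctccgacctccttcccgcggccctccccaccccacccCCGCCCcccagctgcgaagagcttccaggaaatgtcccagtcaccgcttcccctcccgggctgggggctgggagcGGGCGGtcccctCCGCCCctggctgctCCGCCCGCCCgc
Mfge8, chr7:79149061-79149310, minus strand: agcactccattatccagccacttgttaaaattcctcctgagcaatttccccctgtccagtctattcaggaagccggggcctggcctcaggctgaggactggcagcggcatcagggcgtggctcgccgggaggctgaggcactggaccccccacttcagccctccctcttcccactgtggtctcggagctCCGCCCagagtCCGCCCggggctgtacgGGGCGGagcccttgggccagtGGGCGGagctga

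Stab1 and Stab2 held no GC box in this window, and Stab2 had 1 AGGTCA. Pros1 had 5 GC boxes and Mfge8 had 4, and neither held any of the other letters. Among the 10 members 7 had a GC box, 3 had AGGTCA and 0 had GAGGAAGT or TATAAA. Of all 32851 promoter windows of this length 32.7% held GGGCGG, 14% AGGTCA, 2.44% GAGGAAGT and 12.4% TATAAA. A match describes letters only, and a missing match says nothing of the factor.

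Stab1 lay lower in the ECP arrays by the widest margin of the 10 relative to its error. Stabilin-1 is a large scavenger receptor of sinusoidal and lymphatic endothelium and of tissue macrophages that binds phosphatidylserine on dying cells. Its level was 5.13, 5.17, 5.04, 5.32 and 5.04 in ECP replicates 1 to 5 and 5.49, 5.25, 5.73, 5.60 and 5.38 in control replicates 1 to 5. ECP replicates 1, 2, 3 and 5 lay below every control, and ECP replicate 4 lay above control replicate 2 alone. The means were 5.14 ± 0.11 (SD, n = 5) and 5.49 ± 0.19 (SD, n = 5), a difference of -0.35 (SE 0.095, limma, 95% interval -0.56 to -0.14). The unadjusted p of 0.0034 ranked 132 among the 19505 genes, and the adjusted p of 0.504 did not pass. Stab1 lay below the median of all genes for mean level, though above the lowest quartile. No call of presence above background was used for it. The difference stayed between -0.41 and -0.29 when any 1 array was left out, with unadjusted p-values of 0.00093 to 0.010 (limma), and was -0.31 without control replicates 1 and 4 (unadjusted p = 0.019).

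Stab2 followed in the same direction. Stabilin-2, its relative, clears hyaluronan and dying cells in the sinusoids of liver, spleen and lymph node. The level was 3.90, 3.90, 3.75, 3.92 and 4.00 in ECP replicates 1 to 5 and 3.98, 4.24, 3.98, 4.63 and 3.98 in control replicates 1 to 5. ECP replicates 1 to 4 lay below every control by a small margin, and control replicates 2 and 4 stood above the other 8 arrays. The difference was -0.27 (SE 0.12, limma, 95% interval -0.53 to -0.0023), with an unadjusted p of 0.048 and an adjusted p of 0.973. With any 1 array left out it ran from -0.31 to -0.15, with unadjusted p-values of 0.033 to 0.11 (limma), the highest without ECP replicate 3. The p was also above 0.05 without ECP replicate 1, 2 or 4 or control replicate 2. Without control replicate 4, the array with the highest acinar and B cell levels, the difference was -0.15 (unadjusted p = 0.086, limma). It was -0.17 without control replicates 1 and 4 (unadjusted p = 0.074, limma). Stab2 was in the lowest quartile of all genes for mean level, and no call of presence above background was used here.

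No difference in response between the stabilins was detected. Taken within each array, Stab1 minus Stab2 differed between the groups by -0.081 (exact permutation p = 0.635, two-sided, adjusted p = 0.770 over 5 such contrasts), or 0.024 without control replicate 3. Markers of the cells in which stabilins are best known are given beside these genes, and their part in the stabilin values was not tested. Of 6 lymphatic and sinusoidal endothelial markers 4 lay higher and 2 lower in the ECP arrays, with a level of 7.79 to 8.13 against 7.34 to 8.25 in the controls, and of 8 macrophage markers 5 lay higher and 3 lower, with a level of 7.57 to 8.36 against 7.28 to 8.32. Across the 10 arrays Stab1 had a Pearson r of 0.059 with the macrophage level (permutation p = 0.870, adjusted p = 0.962 over 130 relations; Spearman rho 0.042, adjusted p = 0.997), and 0.548 without the 2 arrays farthest from the median macrophage level. With the lymphatic level r was -0.063 (permutation p = 0.867, adjusted p = 0.962; rho 0.018, adjusted p = 0.997), and -0.135 without the 2 arrays farthest from that median. Stab2 had an r of 0.475 with the macrophage level (permutation p = 0.174, adjusted p = 0.445; rho 0.067, adjusted p = 0.997), which was 0.843 without the 2 arrays farthest from the macrophage median and 0.139 without control replicates 1 and 4. Its r with the lymphatic level was 0.437 (permutation p = 0.199, adjusted p = 0.462; rho 0.091, adjusted p = 0.997), and 0.076 without control replicates 1 and 4, the arrays farthest from that median. Without the 2 arrays farthest from the Stab1 median, Stab1 had r of -0.446 with the macrophage and -0.629 with the lymphatic level. Without the 2 arrays farthest from the Stab2 median, Stab2 had -0.092 and -0.406. The sign of both macrophage relations thus depended on which arrays were left out. Bulk tissue cannot separate fewer cells of a type from less RNA per cell, here or in any result below.

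**Figure D2:**
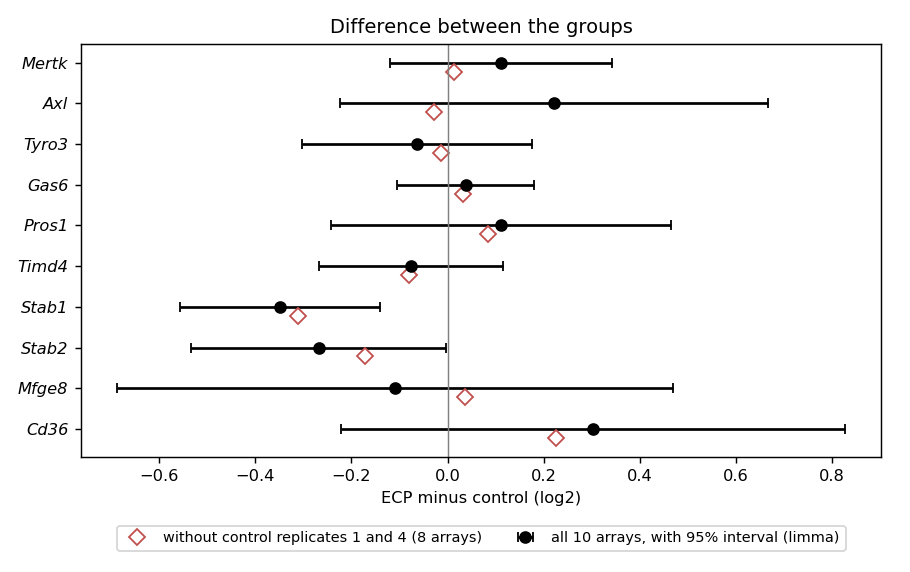
Difference between the groups, ECP minus control on the log2 scale (x axis), for the 10 clearance genes (rows); filled points with bars are limma estimates with 95% intervals over all 10 arrays, and open diamonds are estimates without control replicates 1 and 4. The intervals of Stab1 (-0.56 to -0.14) and Stab2 (-0.53 to -0.0023) lie below 0 and the other 8 include 0; the diamonds of Axl and Mfge8 lie across 0 from their filled points.

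Timd4 codes for TIM-4, which tethers dying cells to resident macrophages. ECP replicates 1 to 5 had 4.32, 4.48, 4.84, 4.57 and 4.57, and control replicates 1 to 5 had 4.62, 4.58, 4.64, 4.63 and 4.69. In all, 4 of 5 ECP arrays lay below all controls and ECP replicate 3 lay above all of them. The difference was -0.076 (SE 0.087, 95% interval -0.27 to 0.11), and it moved with single arrays, to -0.15 without ECP replicate 3 (unadjusted p = 0.066, limma) and to -0.019 without ECP replicate 1 (unadjusted p = 0.824, limma). Timd4 was the single member with a smaller spread in the controls (SD 0.040) than in the ECP arrays (SD 0.19), and like Stab2 it belonged to the lowest quartile.

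No difference beyond the spread of the arrays was detected for the TAM receptors. Mertk, the TAM receptor that drives engulfment by macrophages, was at 8.50, 8.54, 8.61, 8.86 and 8.85 in ECP replicates 1 to 5 and at 8.51, 8.54, 8.62, 8.32 and 8.82 in control replicates 1 to 5. ECP replicates 4 and 5 and control replicate 5 formed the high end, and control replicate 4 was lowest. The difference was 0.11 (SE 0.11, limma adjusted p = 0.998, 95% interval -0.12 to 0.34), and 0.013 without control replicates 1 and 4.

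Axl, a TAM receptor bound by Gas6 and carried by stromal cells and activated macrophages, was at 9.26, 8.85, 8.83, 9.0 and 8.82 in ECP replicates 1 to 5 and at 7.86, 9.06, 9.06, 8.86 and 8.82 in control replicates 1 to 5. Control replicate 1 lay far below every other array, and control replicates 2, 3 and 4 fell within the ECP range, with control replicate 5 at its lower end. The difference of 0.22 (SE 0.20, adjusted p = 0.998, limma, 95% interval -0.22 to 0.67) was 0.0028 without control replicate 1 and -0.028 without control replicates 1 and 4. In control replicate 1 the endothelial marker level was 6.69 against 7.02 to 7.38 on the other arrays and the fibroblast level 8.59 against 8.74 to 9.41, and their part in the low Axl value was not tested.

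Tyro3, a TAM receptor best known from neurons and dendritic cells, was at 6.72, 6.75, 6.48, 6.30 and 6.59 in ECP replicates 1 to 5 and at 6.81, 6.72, 6.70, 6.61 and 6.32 in control replicates 1 to 5. The difference was -0.064 (SE 0.11, limma adjusted p = 0.998, 95% interval -0.30 to 0.18), or 0.0029 without ECP replicate 4. The 3 receptors were also set against each other within each array. Mertk minus Axl differed between the groups by -0.11, Mertk minus Tyro3 by 0.18 and Axl minus Tyro3 by 0.29, with exact permutation p-values of 0.730, 0.397 and 0.437 (two-sided, 252 splits, each adjusted p 0.770). Mertk minus Axl turned to 0.096 without control replicate 1 and to 0.010 without ECP replicate 1, and Axl minus Tyro3 was 0.022 without control replicate 1, and no unequal response of the family was detected.

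The TAM ligands showed no detectable difference either. Gas6, a vitamin K-dependent protein that binds all TAM receptors, was at 10.63, 10.68, 10.63, 10.75 and 10.81 in ECP replicates 1 to 5 and at 10.69, 10.70, 10.75, 10.62 and 10.55 in control replicates 1 to 5. It had the narrowest interval of the 10 members, with a difference of 0.038 (SE 0.065, limma adjusted p = 0.998, 95% interval -0.10 to 0.18) and SDs of 0.077 and 0.080. Pros1 codes for protein S, an anticoagulant cofactor that binds Mertk and Tyro3, and was at 7.96, 7.64, 7.41, 7.85 and 7.58 in ECP replicates 1 to 5 and at 7.06, 7.66, 7.70, 8.02 and 7.45 in control replicates 1 to 5. Control replicates 1 and 4 were the lowest and the highest of all arrays. The Pros1 difference of 0.11 (SE 0.16, adjusted p = 0.998, limma, 95% interval -0.24 to 0.47) was -0.020 without control replicate 1, and Gas6 minus Pros1 differed by -0.073 (exact permutation p = 0.770, adjusted p = 0.770), or 0.065 without control replicate 1 and 0.012 without ECP replicate 1.

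Mfge8 and Cd36 were spread by the same pair of control arrays. Mfge8 codes for lactadherin, which bridges phosphatidylserine to integrins on phagocytes, and was at 9.06, 8.57, 8.31, 8.65 and 8.50 in ECP replicates 1 to 5 and at 8.08, 8.69, 8.56, 9.81 and 8.49 in control replicates 1 to 5. Control replicate 4 was highest, followed by ECP replicate 1, and these were also the arrays with the highest B cell levels (8.72 and 7.0) and monocyte levels (9.12 and 8.68). Across the 10 arrays Mfge8 had r = 0.903 with the B cell level, but rho 0.370 (permutation, adjusted p = 0.667). Without these 2 arrays that r was -0.298, and the monocyte relation is given below. The difference of -0.11 (SE 0.26, limma adjusted p = 1.000, 95% interval -0.69 to 0.47) was 0.16 without control replicate 4.

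Cd36 codes for a scavenger receptor and fatty acid transporter of macrophages, fat cells and capillary endothelium. ECP replicates 1 to 5 were at 6.75, 6.53, 6.74, 6.61 and 6.95, and control replicates 1 to 5 at 5.46, 6.56, 6.60, 7.14 and 6.31. Its difference was the highest of the 10, at 0.30 (SE 0.24, adjusted p = 0.998, limma, 95% interval -0.22 to 0.83), and 0.063 without control replicate 1. Without control replicate 4 it was 0.48, with an unadjusted p of 0.035, and without both it was 0.23. All 7 adipocyte markers lay higher in the ECP arrays (median difference 0.26), with a level of 6.24 to 7.31 against 5.80 to 6.91 in the controls. All 7 smooth muscle and all 5 fibroblast markers also lay higher. Cd36 had r = 0.447 with the adipocyte level (permutation adjusted p = 0.462, rho 0.794, adjusted p = 0.089), and 0.875 without control replicates 1 and 4. With the endothelial level r was 0.852 (permutation adjusted p = 0.072), and 0.222 without these arrays. The part of these cells in the Cd36 difference between the groups was not tested.

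The members varied more among the controls than among the ECP arrays. The SD was larger in the controls for 9 of 10 members, as it was for 65.8% of all genes, with medians over all genes of 0.16 and 0.13. For Cd36 the SDs were 0.62 in the controls and 0.16 in the ECP arrays, for Axl 0.50 and 0.19, and for Mfge8 0.65 and 0.28. Control replicates 1 and 4 gave the extremes in each of these genes, except the top of Axl, which was ECP replicate 1.

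Pros1 and Mfge8 went up and down together across the arrays. Their Pearson r over the 10 arrays was 0.842 (permutation p = 0.0029, adjusted p = 0.115 over 45 pairs of members) and Spearman's rho was 0.939 (permutation p = 0.00028, adjusted p = 0.0126). This r came to 0.884 on leaving out the 2 arrays farthest from the Pros1 median, which are control replicates 1 and 4, and 0.893 on deviations from the group means. Axl with Pros1 had r = 0.807 (permutation p = 0.0067, adjusted p = 0.115; rho 0.806, adjusted p = 0.157) and 0.342 without the 2 arrays farthest from the Axl median, or 0.852 without control replicates 1 and 4. Pros1 with Cd36 had r = 0.801 (permutation p = 0.0077, adjusted p = 0.115; rho 0.588, adjusted p = 0.727) and 0.212 without control replicates 1 and 4, so that relation rests on these arrays. No pair passed by Pearson's r after adjustment, 0 of 45, and 25 pairs had a positive and 20 a negative r.

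Other pairs, receptors with their ligands among them, gave weaker relations, and none passed. Mertk with Gas6 had r = 0.354 (permutation p = 0.313, adjusted p = 0.827; rho 0.455, adjusted p = 0.890), and -0.241 without the 2 arrays farthest from the Mertk median. Axl with Gas6 had r = 0.0081 (permutation p = 0.982, adjusted p = 0.999; rho 0.212, adjusted p = 0.913), and 0.444 without the 2 arrays farthest from the Axl median. Mertk and Tyro3 ran in opposite directions, with r = -0.665 (permutation p = 0.037, adjusted p = 0.331; rho -0.685, adjusted p = 0.391), -0.593 without the 2 arrays farthest from the Mertk median and -0.790 without control replicates 1 and 4. Stab1 and Stab2 had r = 0.487 (permutation p = 0.150, adjusted p = 0.614; rho 0.430, adjusted p = 0.890), 0.324 without the 2 arrays farthest from the Stab1 median, and 0.069 on deviations from the group means.

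Some members went along with the marker levels of phagocytes and stroma. Of 130 relations between 10 members and 13 marker lists, 7 had an adjusted permutation p under 0.05 by Pearson's r, and all 7 belonged to Pros1 or Mfge8. The count by r was 15 without control replicate 1, 4 without control replicates 1 and 4, and 0 without control replicates 1, 4 and 5, where fewer arrays remained. By Spearman's rho 11 relations passed, 5 of Pros1, 5 of Mfge8 and that of Axl with the macrophage level (rho 0.867, adjusted p = 0.032). Pros1 followed the macrophage level with r = 0.967 (permutation p = 2e-05, adjusted p = 0.0020; rho 0.964, adjusted p = 0.0046), with 0.970 in the absence of the 2 arrays farthest from the median macrophage level and 0.950 without control replicates 1 and 4. It followed the endothelial level about as closely, with r = 0.963 (permutation p = 3e-05, adjusted p = 0.0020; rho 0.952, adjusted p = 0.0046) and 0.903 without control replicates 1 and 4, the arrays farthest from its median, and the fibroblast level with r = 0.921 (permutation p = 0.00011, adjusted p = 0.0048; rho 0.879, adjusted p = 0.031) and 0.810 without those controls (0.851 without the 2 arrays farthest from its median). The monocyte and lymphatic levels completed its 5 relations, with r of 0.847 (permutation p = 0.0022, adjusted p = 0.041; rho 0.842, adjusted p = 0.044) and 0.926 (permutation p = 0.00031, adjusted p = 0.0081; rho 0.867, adjusted p = 0.032), or 0.766 and 0.754 without the 2 arrays farthest from each median. The marker levels varied together, so these data do not tell which cells carried the Pros1 signal.

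Mfge8 followed the macrophage level with r = 0.878 (permutation p = 0.00024, adjusted p = 0.0078; rho 0.952, adjusted p = 0.0046), with 0.896 when the 2 arrays farthest from the median macrophage level were left out and 0.947 without control replicates 1 and 4. With the monocyte level, which includes the matrix genes Vcan and Fn1, it had r = 0.929 (permutation p = 0.0005, adjusted p = 0.011; rho 0.927, adjusted p = 0.011), and 0.699 without the 2 arrays farthest from that median. The lymphatic, endothelial and fibroblast levels completed its 5 relations by rho, at 0.952, 0.879 and 0.855 (permutation adjusted p = 0.0046, 0.031 and 0.039). Their r was 0.831, 0.759 and 0.743 (permutation adjusted p = 0.072, 0.157 and 0.082). As the marker levels varied together, these data do not tell which cells carried the Mfge8 signal either. Axl had r = 0.736 with the macrophage level (permutation p = 0.0064, adjusted p = 0.070; rho 0.867, adjusted p = 0.032). This r depended on the arrays left out, at 0.319 without the 2 farthest from the median and 0.921 without control replicates 1 and 4. Axl had higher r with the endothelial (0.852), lymphatic (0.831) and fibroblast (0.759) levels (permutation adjusted p = 0.080, 0.092 and 0.070). Their rho was 0.806, 0.770 and 0.721 (permutation adjusted p = 0.074, 0.103 and 0.158). Without the 2 arrays farthest from the Axl median these r were 0.306, 0.200 and 0.588. For Mertk, a receptor of macrophages, r with the macrophage level was -0.360 (permutation p = 0.308, adjusted p = 0.629; rho -0.309, adjusted p = 0.710). It was -0.589 without the 2 arrays farthest from the macrophage median and -0.40 without control replicates 1 and 4. Timd4 had r = -0.548 with the macrophage level (permutation p = 0.097, adjusted p = 0.315; rho -0.467, adjusted p = 0.516), -0.372 without the same 2 farthest arrays and -0.844 without control replicates 1 and 4.

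**Figure D3:**
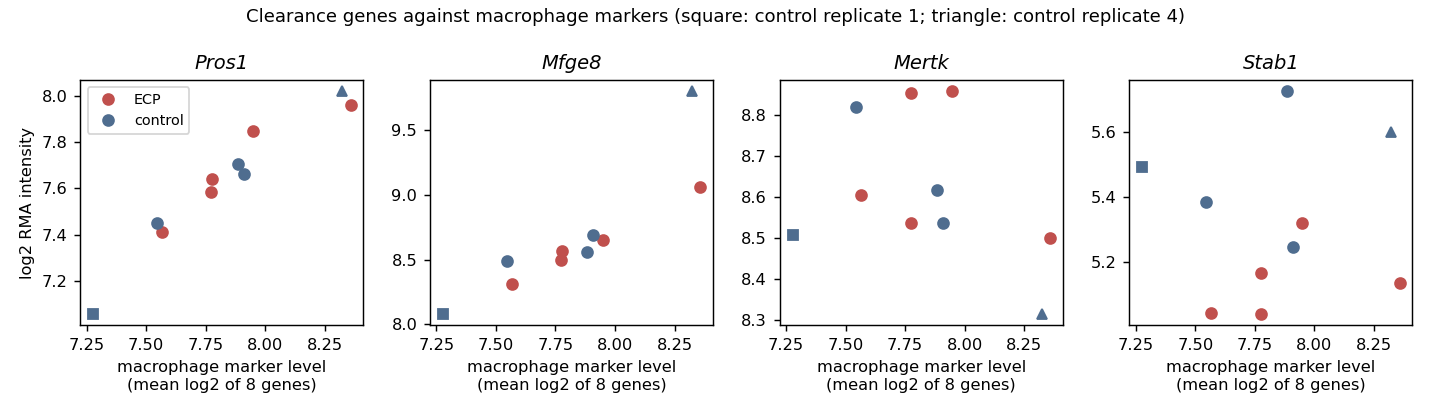
Log2 RMA intensity of Pros1, Mfge8, Mertk and Stab1 (y axes) against the macrophage marker level, the mean log2 value of 8 genes (x axis), with 1 point per array, ECP red and control blue, and control replicates 1 and 4 as a square and a triangle. Pros1 (r = 0.967) and Mfge8 (r = 0.878) lie along a line, while Mertk (r = -0.360) and Stab1 (r = 0.059) do not.

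**Figure D4:**
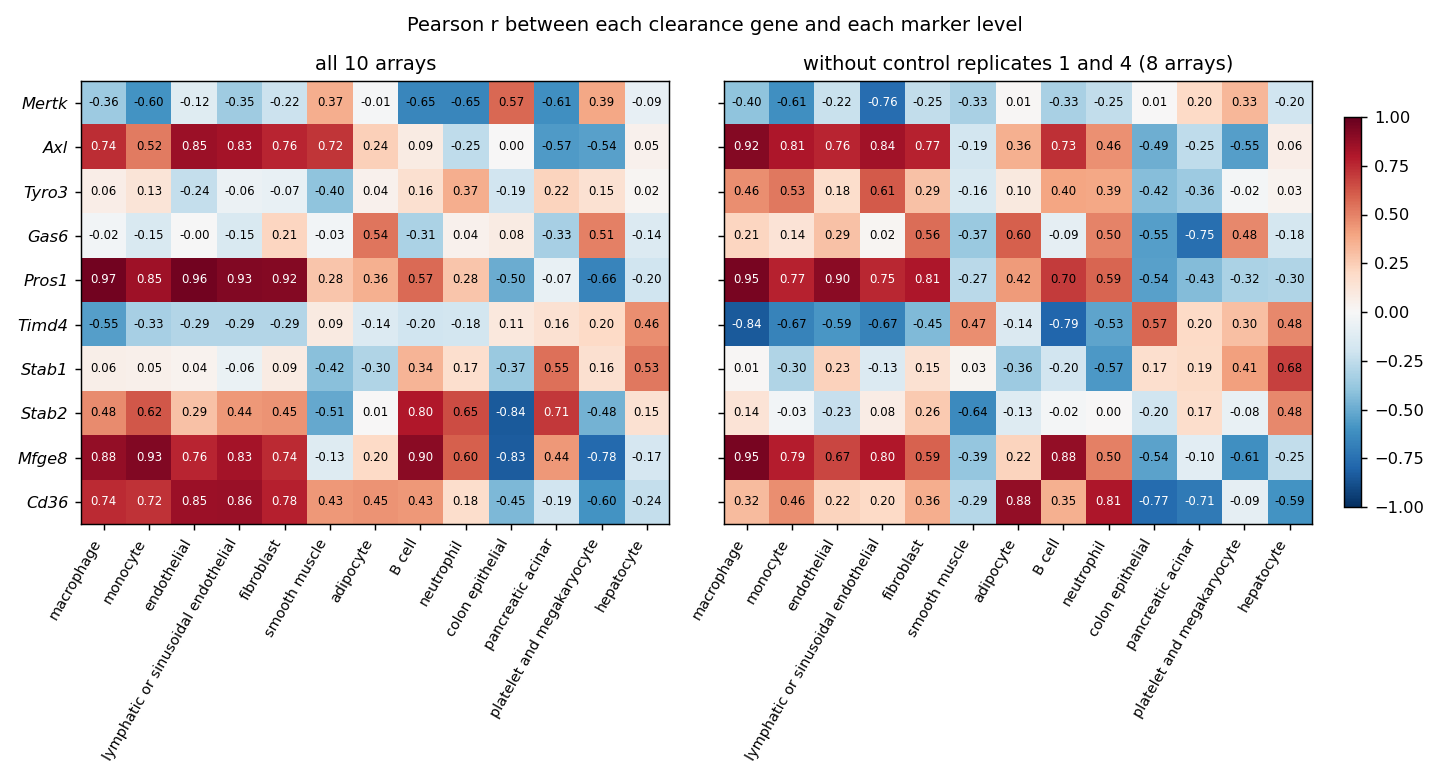
Pearson r (colour and printed value) between each clearance gene (rows) and the level of each of 13 marker lists (columns), over all 10 arrays on the left and over 8 arrays, without control replicates 1 and 4, on the right. Pros1 and Mfge8 are at 0.95 with macrophage markers on the right, and the value of Cd36 with endothelial markers goes from 0.85 on the left to 0.22 on the right.

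Each member was also set against every other gene. For each member the 3 genes with the highest Pearson r over the 10 arrays were taken from all genes, as a description with no test. For Axl these were Dpt, which codes for the matrix protein dermatopontin (r = 0.976), Sgce, a sarcoglycan gene (0.972), and Foxf1, a transcription factor gene of gut mesenchyme (0.970), and without control replicates 1 and 4 the values were 0.842, 0.836 and 0.816. For Mfge8 they were Cd3d, which codes for a part of the T cell receptor complex (0.989), Ptprc, which codes for the leukocyte antigen CD45 (0.986), and the leukocyte signalling gene Vav1 (0.985), with 0.967, 0.927 and 0.960 without these arrays. For Pros1 they were the Golgi mannosidase gene Man2a2 (0.979), the G protein subunit gene Gnb4 (0.969) and Parp8 (0.969), with 0.984, 0.962 and 0.930 without them. Mertk was most like the gasdermin gene Gsdme (0.969), Vcpkmt (0.964) and Mia3 (0.961), with 0.968, 0.945 and 0.947 without control replicates 1 and 4. Cd36 was most like Nsun4 (0.976), Ppp1r7 (0.956) and Ptafr, which codes for the receptor of platelet-activating factor (0.936). Without control replicates 1 and 4 the Cd36 values fell to 0.865, 0.784 and 0.705.

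The genes nearest to the other members are given in the same way. Stab1 was most like the olfactory receptor gene Olfr507 (0.944), Rsph14 (0.895) and Sult3a2 (0.872). Timd4 was most like the olfactory receptor gene Olfr982 (0.940), Ctag2 (0.888) and the vomeronasal receptor gene Vmn2r85 (0.883). These values are the highest picked from all genes, and whether they exceed chance was not tested. Stab1 lay below the median of all genes for mean level and Timd4 in the lowest quartile. The levels of their nearest genes are not given here. Stab2 was closest to H2-M11 (0.941), Slc6a20a (0.928) and Rtf1 (0.927), and these fell to 0.796, 0.791 and 0.740 without control replicates 1 and 4. Gas6 was closest to the neuropeptide receptor gene Npffr2 (0.900), 9830107B12Rik (0.893) and Otor (0.893). Tyro3 was closest to the acute phase gene Orm3 (0.947), Tmem192 (0.890) and Otx1 (0.886). No macrophage or endothelial marker of the fixed lists was among the 3 genes nearest to any member.

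The rest of the clearance route was read from 9 fixed lists that hold no member. Of their 126 genes 115 were measured. In the ECP arrays 64 lay higher and 51 lower, with a median difference of 0.014, and 0 passed the threshold (limma). An unadjusted p under 0.05 was found for 3 genes, 2.61% against 5.08% of all genes, each of them higher in the ECP arrays. Groups did not overlap for 1 of the 115 genes, 0.870% against 1.22% of all genes.

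These 3 genes were Pparg, Rxra and Panx1. Pparg codes for a nuclear receptor that is activated by lipids taken up with dying cells and directs fat cell differentiation, and it was at 9.88, 10.04, 10.21, 10.24 and 10.36 in ECP replicates 1 to 5 and at 9.88, 9.85, 9.67, 9.45 and 10.03 in control replicates 1 to 5, a difference of 0.37 (SE 0.12, unadjusted p = 0.0090, adjusted p = 0.707, limma). The adipocyte marker level, given above beside Cd36, lay in the same direction between the groups. Among the controls, replicate 5 had the highest Pparg, the lowest adipocyte level (5.80) and the highest colon epithelial level (12.27). Control replicate 4 had the lowest Pparg of the controls, their highest adipocyte level (6.91) and their lowest colon epithelial level (11.70). Among the ECP arrays, replicate 5 had the highest Pparg, the highest adipocyte level (7.31) and the lowest colon epithelial level (12.08). The part of the adipocyte and colon epithelial levels in the Pparg values was not tested. Rxra codes for the partner with which nuclear receptors such as this bind DNA, and was at 8.46, 8.50, 8.43, 8.49 and 8.48 in ECP replicates 1 to 5 and at 8.25, 8.29, 8.39, 8.31 and 8.41 in control replicates 1 to 5. All ECP arrays lay above all controls for Rxra, by a small margin, with a difference of 0.14 (SE 0.057, unadjusted p = 0.033, adjusted p = 0.939, limma). Panx1, which codes for the channel that releases nucleotides from dying cells as a signal to phagocytes, differed by 0.17 (SE 0.067, unadjusted p = 0.024, adjusted p = 0.913, limma), with levels of 8.78 ± 0.087 and 8.60 ± 0.079 (SD, n = 5 each).

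Receptors and bridges other than the 10 members lay on both sides of 0. Of 18 other engulfment receptors 8 lay higher and 10 lower (median -0.015), and the 3 with the smallest p were Lrp1, a receptor for calreticulin on dying cells (0.19), Megf10 (0.18) and Cd300lf (0.16). Of 16 other bridging molecules and opsonins 11 lay higher and 5 lower (median 0.029), with Tulp1 at -0.25, the calreticulin gene Calr at 0.081 and the transglutaminase gene Tgm2 at 0.20. Find-me signals and their receptors, 12 genes, had 8 higher and 4 lower (median 0.032), and beside Panx1 the nucleotide receptor gene P2ry2 was at 0.15 and the sphingosine kinase gene Sphk2 at 0.12. The 7 do-not-eat-me genes had 4 higher and 3 lower (median 0.0080), with Lilrb4a at 0.23, Cd24a at 0.067 and Pirb at 0.14. None of the genes in this paragraph had an unadjusted p under 0.05 other than Panx1.

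Genes of the inner machinery of uptake also lay on both sides of 0. The 8 scramblases and flippases, which move phosphatidylserine between membrane leaflets, had 5 higher and 3 lower (median 0.045), with Xkr9 at 0.11, Atp8a1 at -0.063 and Atp8b1 at 0.060. Of 15 engulfment signalling genes 6 lay higher and 9 lower (median -0.0030), with Crkl at -0.083, the Rac activator gene Elmo1 at -0.12 and Trio at -0.094. Of 19 genes of corpse digestion and LC3-associated phagocytosis 12 lay higher and 7 lower (median 0.048), with the lysosomal membrane gene Lamp2 at 0.13, the autophagy gene Atg16l1 at -0.12 and the lysosomal channel gene Mcoln1 at 0.086. Sterol sensing and efflux genes, 9 in number, had 4 higher and 5 lower (median -0.011), with Pparg and Rxra above and the transporter gene Abca7 at -0.084. Of 11 genes of TAM shedding and feedback 6 lay higher and 5 lower (median 0.034), with Lgals3bp, a partner of galectin-3, at 0.13, the cytokine signalling suppressor gene Socs3 at -0.37 (SE 0.23) and the receptor-cleaving protease gene Adam17 at -0.073.

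**Figure D5:**
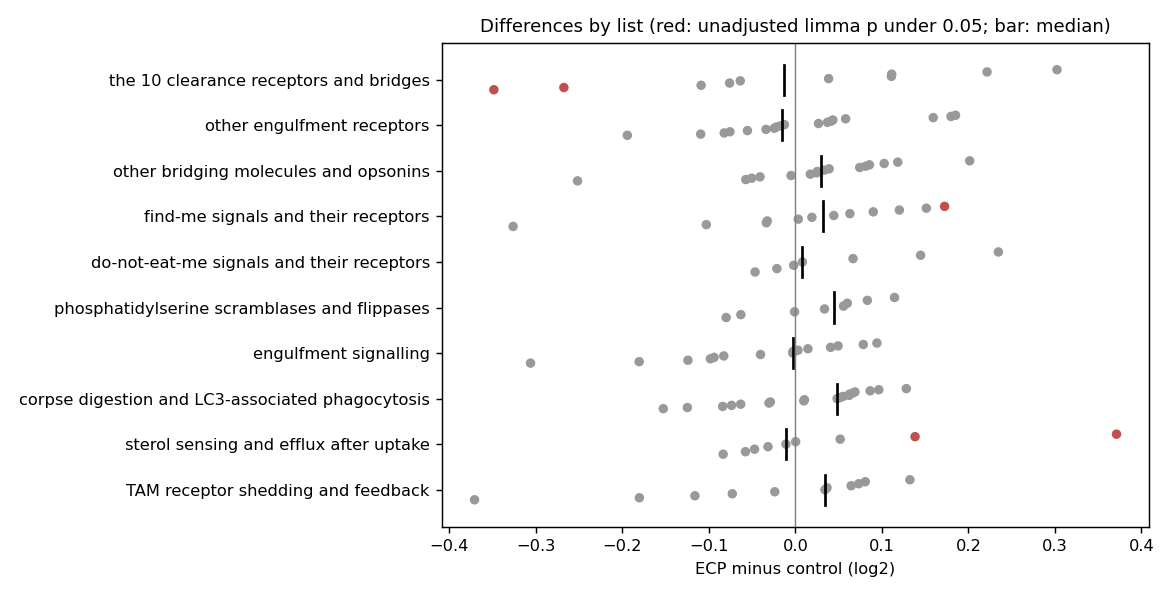
Difference between the groups, ECP minus control on the log2 scale (x axis), of each measured gene (points) in the 10 clearance receptors and bridges and in 9 fixed lists of the same route (rows); red points have an unadjusted limma p under 0.05 and black bars are list medians. The red points are Stab1 and Stab2 on the left and Panx1, Rxra and Pparg on the right, and the list medians lie between -0.015 and 0.048.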

How the data were processed

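Colon RNA was hybridised to 10 Clariom S Mouse arrays of a single colour. Per the submitters' processing notes, the authors used oligo with RMA for the deposited log2 values. RMA corrects background, equalises array distributions by quantiles and summarises probe sets, so it hides any shift that most genes share. Its version and options are not given in the sources. The table held 22203 probe sets, of which 19572 had 1 symbol in the platform annotation and 2631 were unnamed, and the probe set with the highest mean was kept for each of 19505 genes. Groups and replicate numbers came from sample titles. Array medians were 6.94 to 6.98, correlations between arrays 0.976 to 0.995, and the number of arrays limits the precision.

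All genes were fitted with limma 3.58.1 in R 4.3.3 (lmFit, eBayes, two-sided, no covariate, tested on simulated data), with Benjamini-Hochberg adjustment at 0.05. Contrasts within a family used exact permutation of the 10 arrays, and correlations 100000 permutations. A marker level is the mean log2 value of a list. All 10 members, the 3 genes with the smallest p per list and the 3 genes nearest to each member are named. Fixed genes without a named probe set were not analysed here. The members and lists were chosen with earlier results of these data known. Alternatives were other scalings, filters, probe set summaries, variance models, array weights, the replicate number as a block and left-out arrays.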

Additional observations from a re-analysis of the deposited data

Results flagged for a closer look

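Of 110 sets of 5 values (a gene, marker level or contrast in 1 group), 10 had an extreme array whose distance to the next exceeded 0.71 of the whole range, where chance gives about 5.5 (1 in 20). Control replicate 1 was low in Axl (7.86, next 8.82) and in Axl minus Tyro3 (1.05, next 2.25), and high in the flippase gene Atp8a1 (10.83, next 10.69). Control replicate 4 was high in the B cell marker level (8.72, next 6.18) and low in the colon epithelial marker level (11.70, next 12.15). Control replicate 5 was high in Mertk minus Tyro3 (2.49, next 1.92) and low in the adipocyte marker level (5.80, next 6.64), and ECP replicate 2 was low in the adipocyte marker level too (6.24, next 7.13). ECP replicate 1 was high in the scramblase-family gene Xkr9 (5.24, next 5.06) and in the monocyte marker level (8.68, next 8.15).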

How the results depend on the processing

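The count of 0 genes past the threshold (991 at an unadjusted p under 0.05, limma) was 1 without the lowest quartile of genes, 7 without genes below the median, 1 with trend and robust options and 0 to 1 with 1 array left out, and no member was among them under any setting. The count of 2 members with an unadjusted p under 0.05 was 1 after renewed quantile normalisation, 1 without the lowest quartile, which removes Stab2, 0 without genes below the median, which removes both stabilins, 1 without control replicates 1 and 4, 1 without control replicates 1, 4 and 5, and 1 to 2 with 1 array left out. Stab1 and Stab2 kept their direction under every setting that tested them. Without control replicates 1 and 4 Axl turned to -0.028, Mfge8 to 0.036, Mertk minus Axl to 0.041 and Axl minus Tyro3 to -0.015. Without control replicates 1, 4 and 5 Axl was at -0.11, Gas6 at -0.027 and Mertk minus Axl at 0.20. With 1 array left out the differences ran from -0.14 to 0.0029 for Tyro3, from -0.020 to 0.22 for Pros1, from -0.27 to 0.16 for Mfge8, from -0.20 to 0.096 for Mertk minus Axl, from -0.20 to 0.065 for Gas6 minus Pros1 and from -0.17 to 0.024 for Stab1 minus Stab2. Pairs of members with an adjusted p under 0.05 numbered 0 to 2 and relations with marker levels 5 to 15 with 1 array left out, and the latter 4 without control replicates 1 and 4 and 0 without control replicates 1, 4 and 5, where fewer arrays remain. The cause of the other moves was not tested.

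Arrays of the same replicate number did not deviate together (correlations of -0.24 to 0.076 over genes). The titles do not say whether the numbers pair the arrays, and these correlations cannot settle it. With the replicate number as a block 0 genes passed and 2 members had an unadjusted p under 0.05 (limma). The family contrasts were not run with trend and robust options, array weights or every probe set on its own, and correlations also not with filters or the block.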
